A study of Homo sapiens with 12 samples.

Results

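The subject is 1863 CTCF regions of HAP1 cells that carried a CTCF peak in the wild-type library and none in the ΔWAPL or ΔWAPL/ΔSCC4 library. HAP1 is a near-haploid human cell line from a chronic myeloid leukaemia. They were found by merging the CTCF peak lists of all 4 genotypes into 53945 regions wherever intervals overlapped by at least 1 bp. Of these, 42949 held a wild-type peak, and the 1863 regions were 4.34% of these. Over all wild-type regions 3588 (8.35%) had no ΔWAPL peak, whatever the other lists showed. A further 14 regions with the same pattern, at exons of TTK, were left out by the rule, and with them 4.37% of the wild-type regions lacked a peak in both lists. The regions were selected on the presence or absence of a CTCF peak in these 3 lists, so those presences are a description and not a result. Presence in the ΔSCC4 CTCF list was left free, although its intervals were merged with the others and so helped to set the region borders. The SMC1 lists, the DNA sequence and the position in genes were not used.

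The series holds 12 chromatin immunoprecipitation libraries, with antibodies against CTCF and SMC1 and with IgG as the control. Each was made once in untreated wild-type cells, in cells with WAPL knocked out (ΔWAPL), in cells with SCC4, the product of MAU2, knocked out (ΔSCC4), and in cells lacking both (ΔWAPL/ΔSCC4). The knockouts were made by CRISPR, the ΔWAPL libraries carry the name of 1 clone, and the double knockout was derived from ΔWAPL cells. These 2 genotypes therefore form a lineage, and loss of WAPL and descent from 1 clone cannot be told apart here. With 1 library per group no test was made between genotypes, and the 95% Wilson intervals given with shares cover counting error only. A peak list likewise cannot tell fewer occupied cells from less binding per cell.

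CTCF is a zinc-finger protein that binds a long DNA motif in a fixed orientation and marks the anchors of chromatin loops and the borders of domains. Cohesin, a ring complex that contains SMC1, is loaded by SCC2/SCC4, extrudes DNA loops, halts at CTCF and is released from DNA by WAPL. Contact of CTCF with its motif can be sensitive to cytosine methylation where the motif holds a CpG, though not necessarily at every position.

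A motif of 19 bp was learned from the top 1000 wild-type peaks on the odd chromosomes, taking only those found in all 4 genotypes, so no region described here trained it. Its consensus is the following line, and the matches below it are those of the 6 strongest regions with a match. They are shown because the text returns to a CpG in them. Each is from hg19, 5′ to 3′ on the strand of the match, with the 19 matching bases in capitals and 10 bp of flank on each side in lower case.
consensus: TGGCCACCAGGGGGCGCTG
GSE1 intron, chr16:85513964-85514002, plus strand: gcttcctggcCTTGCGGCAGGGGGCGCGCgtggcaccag
NBAS intron, chr2:15571216-15571254, plus strand: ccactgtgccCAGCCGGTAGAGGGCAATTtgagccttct
FAM168A intron, chr11:73241386-73241424, plus strand: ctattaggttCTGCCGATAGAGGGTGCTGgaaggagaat
LRMDA intron, chr10:77411427-77411465, minus strand: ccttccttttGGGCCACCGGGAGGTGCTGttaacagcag
near FOXO1, chr13:41242585-41242623, plus strand: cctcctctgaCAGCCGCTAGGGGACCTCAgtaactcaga
CAPN15 coding exon, chr16:597178-597216, plus strand: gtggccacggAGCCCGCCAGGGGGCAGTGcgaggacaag

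Counted from 1 at the 5′ end of the match, the first CpG stood at position 5 in 5 of these 6 sequences and at position 8 in the LRMDA match. The GSE1 match held 3 CpGs and the others 1 each. Between 10 and 15 of the 19 bases were those of the consensus, in which the only CpG is at position 15.

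Most of the 1863 regions were weak CTCF sites. At the summit of the wild-type peak they held 6 to 44 reads, with a median of 10, against a median of 39 reads in the other 41072 wild-type regions. Their fold enrichment, the authors' ratio of reads at the summit to the local background, ran from 2.35 to 14.01 with a median of 5.12, against a median of 12.7 in the others. The −log10 q of the wild-type peak, the adjusted p-value given by the peak caller, was below 5 in 887 regions, between 5 and 10 in 884, between 10 and 20 in 85 and between 20 and 50 in 7. None lay above 50. Put the other way round, 33.5% (31.7 to 35.3) of all wild-type regions with a −log10 q under 5 were absent from the lineage, and this share was 12.97%, 1.19% and 0.0581% in the next 3 classes. Absence was thus mostly found at sites close to the limit of detection, with a thin tail of stronger sites.

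**Figure D1:**
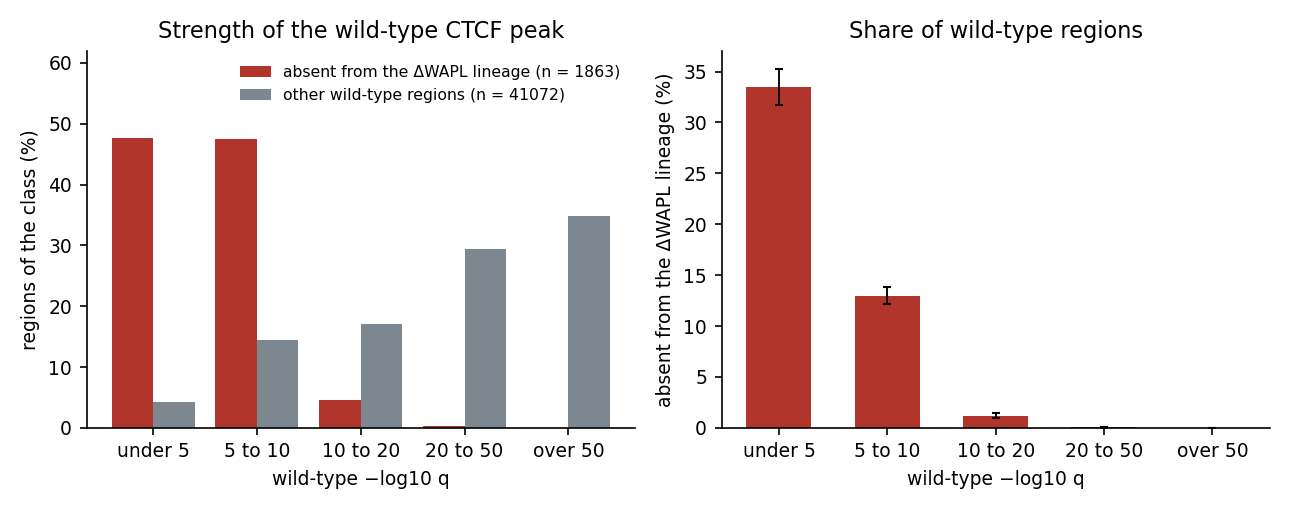
Left, the percentage of the 1863 regions absent from the ΔWAPL lineage and of the other 41072 wild-type regions in each class of wild-type −log10 q. Right, the percentage of all wild-type regions in each class that were absent from the lineage, with 95% Wilson intervals; it was 33.5% under 5 and 0.0581% from 20 to 50.

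At the weak end, the rule divides sites that differed by few reads. The 3 weakest regions lay in a coding exon of SCAMP3, an intron of CCDC169 and an intron of LINC01512, each with 6 wild-type reads and a −log10 q of 1.36 to 1.46. Just outside the rule, a site in an intron of CSTPP1 had 9 reads in wild-type and was kept out by a ΔWAPL/ΔSCC4 peak of 6 reads. In an intron of MARCHF1, 10 wild-type reads stood beside 7 reads in ΔWAPL/ΔSCC4, and in an intron of RORA 10 wild-type reads stood beside 8 in ΔWAPL.

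By depth, as recovered from the lists, the wild-type CTCF library was the shallowest of the 4, at a genome-wide average of 6.53 reads per kb. ΔWAPL cells had 8.41 and the double knockout 7.09, and ΔSCC4 cells had 7.42. For each region the wild-type reads were scaled to the depth of the other library and divided by the fewest reads that this library's own calling limit would accept over the same background. This ratio had a median of 1.74 in ΔWAPL and 1.69 in ΔWAPL/ΔSCC4, and it was at least 2 in 369 (19.8%, 18.1 to 21.7) and 468 (25.1%, 23.2 to 27.1) of the 1863 regions. It is the least drop in reads that an absent call implies. This holds if the background was unchanged and the remaining signal was not too narrow to be called. The rule asks for a wild-type call, so a ratio near or over 1 follows from the rule, and 1861 of the 1863 reached 1 in ΔWAPL. The reads are single counts at regions chosen for being called, so the ratio includes counting error. Loss of binding was not tested.

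In the 24 strongest regions outside IgG peaks the ratio to the calling limit ran from 2.72 to 5.05 in ΔWAPL and from 2.62 to 5.00 in ΔWAPL/ΔSCC4. The summit lay in an intron in 14 and between genes in 8, and 2 of the 24 were within 1 kb of a start site. A ΔSCC4 CTCF peak was present at 13 of them and absent at 11.

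The strongest was in an intron of GSE1, which encodes a coiled-coil protein, at chr16:85513809-85514216. It held 40 reads in wild-type at a fold enrichment of 14.01 and 29 reads in ΔSCC4 at 11.3, and no peak in either lineage library, where 10 reads in ΔWAPL and 9 in ΔWAPL/ΔSCC4 would have been called. Both genotypes with WAPL were thus far over the limit that the lineage did not reach. The second, at chr2:15570975-15571362 in an intron of NBAS, a gene of Golgi-to-endoplasmic-reticulum transport, held 35 reads in wild-type and 13 in ΔSCC4. Here the limit was 9 reads in ΔWAPL and 8 in ΔWAPL/ΔSCC4. An intronic site of FAM168A at chr11:73241239-73241566 held 34 wild-type and 28 ΔSCC4 reads. An intergenic site at chr7:24096863-24097397, without a motif match, held 34 and 31. A site 1812 bp from a FOXO1 start site at chr13:41242392-41242835 held 29 reads in both. FOXO1 encodes a forkhead transcription factor of the insulin pathway. At these last 3 sites the ΔSCC4 library held 28 to 31 reads, well over its calling limit of 9, and no peak was called in the lineage.

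A second kind of strong region was called in wild-type alone. An intron of LRMDA, a gene of melanocyte differentiation, held 26 wild-type reads at chr10:77411312-77411594. A coding exon of CAPN15, a calpain-family protease gene, held 25 at chr16:597035-597311. An intron of MIR99AHG, the long non-coding host transcript of a microRNA cluster, held 25 at chr21:17442463-17442769, without a motif match. None of these 3 had a ΔSCC4 peak, and the calling limit in ΔSCC4 was 7 reads at LRMDA and 8 at CAPN15.

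Further sites among the 24 were intronic. ROBO2, an axon guidance receptor, had 21 reads in wild-type and 19 in ΔSCC4, and APBA2, a neuronal adaptor, had 21 and 22. In EPHB2, an ephrin receptor kinase, 19 wild-type reads had no ΔSCC4 counterpart. The intronic site of CDKAL1, a tRNA-modifying enzyme, fell between these, with 25 reads in wild-type and 9 in ΔSCC4. In N4BP1 the summit was in an untranslated region and both libraries had 25 reads. The strongest of the 24 near a protein-coding start site, 87 bp from that of TOGARAM2, held 28 and 23 reads. It had no motif match, and a CTCF summit of a lineage library lay 546 bp away. The next region near a protein-coding start site, 91 bp from that of SPIN2B at chrX:57147535-57147811, held 18 wild-type reads and had no ΔSCC4 peak.

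**Figure D2:**
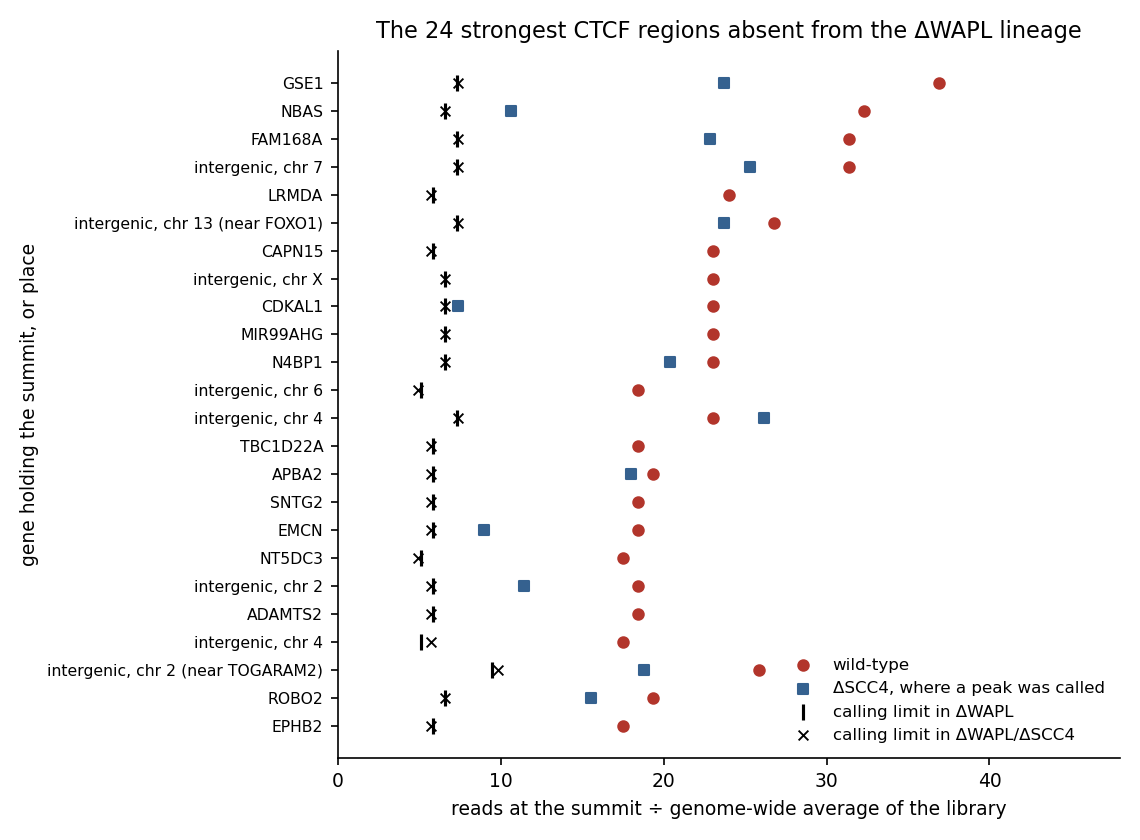
Reads at the summit divided by the genome-wide average pileup of the same library, for the 24 strongest regions, in wild-type (circles) and, where a peak was called, in ΔSCC4 (squares). Bars and crosses mark the fewest reads that would be called in ΔWAPL and ΔWAPL/ΔSCC4 over the wild-type background. All wild-type points lie to the right of both marks, as the choice of regions requires, and 13 sites have a ΔSCC4 square.

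A ΔSCC4 peak, on which the rule set no condition, was present at 251 of the 1863 regions (13.5%, 12 to 15.1). Of all wild-type regions 16.6% lacked a ΔSCC4 peak and 6.75% lacked one in ΔWAPL/ΔSCC4. Most regions absent from the lineage thus had no ΔSCC4 peak either, but the size of the share depends on the lists. With the regions chosen anew from equal numbers of the strongest peaks of each list it was 42.4%, and among the regions with a wild-type −log10 q of at least 10 it was 38.0%. The gap to other wild-type regions was also present within classes of wild-type strength. By definition, however, every other wild-type region had a further CTCF peak in ΔWAPL or ΔWAPL/ΔSCC4. Part of this gap therefore follows from the rule, and matching on wild-type strength does not remove it. Under a −log10 q of 5 the share with a ΔSCC4 peak was 8.23% (6.60 to 10.2), against 34.9% (32.7 to 37.1) of other wild-type regions. From 5 to 10 it was 16.2% (13.9 to 18.7) against 50.7%, and from 10 to 20 it was 35.3% (26.0 to 45.9) against 82.6%. Of the 7 regions from 20 to 50, 5 had a ΔSCC4 peak, against 98.3% of others. As strength can also differ within a class, the others were weighted to their −log10 q in steps of 1, a comparison added after seeing the data, and 42.04% of them then had a ΔSCC4 peak.

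**Figure D3:**
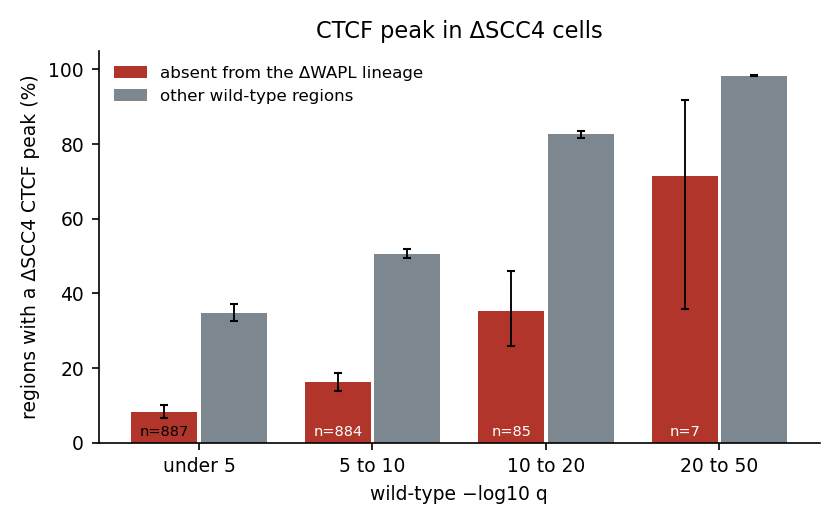
Percentage of regions with a ΔSCC4 CTCF peak by class of wild-type −log10 q, for regions absent from the ΔWAPL lineage (n in the bars) and for other wild-type regions, with 95% Wilson intervals. The share rises with strength in both, from 8.23% to 71.4% and from 34.9% to 98.3%.

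At the regions with a peak in both libraries the reads can be compared, although a large drop cannot appear there, since it would have ended the ΔSCC4 call. The ratio of ΔSCC4 to wild-type reads, each divided by its library average, had a median of 0.885 over these 251 regions, and it was 0.800 over the 34622 regions found in all 4 genotypes. The 251 regions were somewhat stronger in wild-type than the whole set, with a median fold enrichment of 5.47 and a median of 12 reads.

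The CTCF motif was found less often at these regions than at other CTCF sites. On even-numbered chromosomes, which took no part in learning it, 39.9% (36.6 to 43.2) had a match within 50 bp of the summit. The share was 85.6% at regions found in all 4 genotypes, 67.0% at regions missing only in ΔSCC4, and 65.5% at regions with a peak in both ΔWAPL and ΔWAPL/ΔSCC4 but not in wild-type. The last class needs a call in 2 libraries and is somewhat stronger. It had a median of 15 reads in the deeper ΔWAPL library. Its median fold enrichment there was 5.91, against 5.12 in wild-type for the 1863 regions. In windows 1000 bp away the share with a match was 5.00%, which is the rate the threshold was set to. Within classes of strength the gap to other wild-type regions was smaller but remained, with 34.3% (29.9 to 39.0) against 47.4% (44.0 to 50.9) under a −log10 q of 5 and 43.7% (38.9 to 48.6) against 59.7% (57.9 to 61.6) from 5 to 10. From 10 to 20 the values were 54.1% (38.4 to 69.0) and 71.8% (70.2 to 73.3). Weighted to the same strengths, 52.5% of the others had a match. By definition each of these others had a further CTCF call in a lineage library, which may by itself raise their motif share. Below a −log10 q of 10, most of the peaks absent from the lineage had no motif match at the summit.

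The stronger regions did carry the motif, in 18 of the 24 strongest, and 14 of those 18 matches contained a CpG. The CpG was then counted on all chromosomes by strength, a count that was added after the 24 had been seen. From a −log10 q of 15 upwards, 11 of 16 matches (68.8%, 44.4 to 85.8) had a CpG at position 5, against 955 of 12803 (7.46%, 7.02 to 7.93) at other wild-type regions from 15 to 50. Among regions of that strength missing only in ΔSCC4 the share was 11.05% (8.22 to 14.7), and among regions found in all 4 genotypes 7.27%. These strong regions include the 6 whose printed matches prompted the count, and position 5 and the limit of 15 were chosen from them, so the share describes these sites and is no independent support. It was 7 of 8 where the regions also had a ΔSCC4 peak, and 4 of 8 where they had none.

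Neither position 15 in strong sites nor position 5 in weaker ones showed a share of that size. At position 15, where the consensus holds its CpG, 3 of 16 strong matches (18.8%, 6.59 to 43.0) had one, beside 22.5% of other wild-type regions. A CpG anywhere in the match was found in 13 of 16 strong matches, against 34.3% of others, and from 10 to 15 in 29 of 43 (67.4%, 52.5 to 79.5) against 32.9%. At position 5 the value from 10 to 15 was 7 of 43 (16.3%, 8.12 to 30.0) against 8.26%, with overlapping intervals. Below a −log10 q of 10, where most of the 1863 regions lie, it was 10.5% from 5 to 10 (7.92 to 13.9), against 8.81% (7.92 to 9.78).

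**Figure D4:**
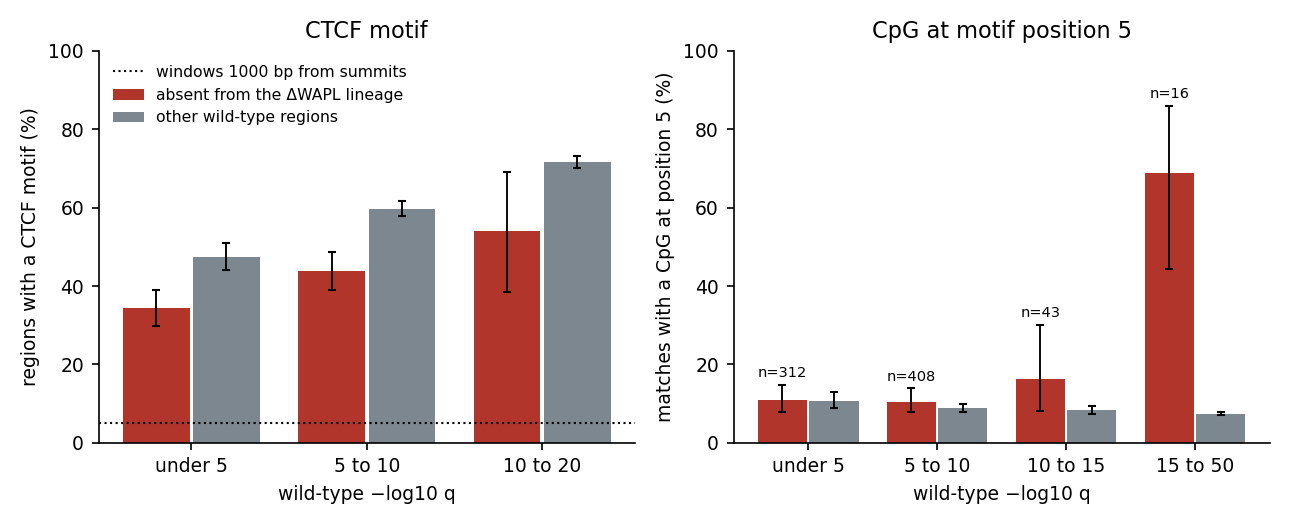
Left, percentage of regions on even-numbered chromosomes with a CTCF motif within 50 bp of the summit, by class of wild-type −log10 q; the dotted line is the 5% rate in windows 1000 bp from summits. Right, percentage of matches on all chromosomes with a CpG at position 5 (n above the bars for regions absent from the ΔWAPL lineage). Bars carry 95% Wilson intervals. The share at position 5 is 68.8% from 15 to 50 in regions absent from the lineage and 7.46% in other wild-type regions.

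Cohesin was rarely called at these regions. In wild-type cells 38 of the 1863 (2.04%, 1.49 to 2.79) overlapped an SMC1 peak, against 40.7% of all wild-type CTCF regions. This share was 3.86% after scaling to the shallowest library, 4.60% with lists of equal length and 6.65% with a −log10 q of at least 10 in all lists. In ΔWAPL it was 155 (8.32%, 7.15 to 9.66) against 62.3%, in ΔSCC4 21 (1.13%, 0.738 to 1.72) against 28.4%, and in ΔWAPL/ΔSCC4 62 (3.33%, 2.60 to 4.24) against 56.4%. By class of strength, the share with a ΔWAPL SMC1 peak was 8.79% against 20.1% of others under a −log10 q of 5, 7.69% against 25.8% from 5 to 10 and 10.6% against 40.8% from 10 to 20. With the others weighted to the same strengths it was 8.32% against 22.8%. For a wild-type SMC1 peak the same weighting gave 2.04% against 4.43%, a smaller gap than that to all wild-type CTCF regions. Here too the others all had a further CTCF call in a lineage library by definition, which may by itself raise their share. The order of the 4 libraries was the same as over all CTCF regions, with ΔWAPL highest and ΔSCC4 lowest.

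The SMC1 peaks lay mostly at promoters. Of the 442 regions within 1 kb of a start site, 118 (26.7%, 22.8 to 31.0) had an SMC1 peak in ΔWAPL and 26 (5.88%, 4.05 to 8.48) in wild-type. Of the 1421 farther away, 37 (2.60%, 1.89 to 3.57) had one in ΔWAPL and 12 (0.844%, 0.484 to 1.47) in wild-type. Of other wild-type regions with a −log10 q under 10, 44.1% had a ΔWAPL SMC1 peak near a start site and 19.3% away from one. Lineage-absent regions under that limit had 26.7% and 2.45%. In both sets the share was thus higher near start sites than away from them.

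**Figure D5:**
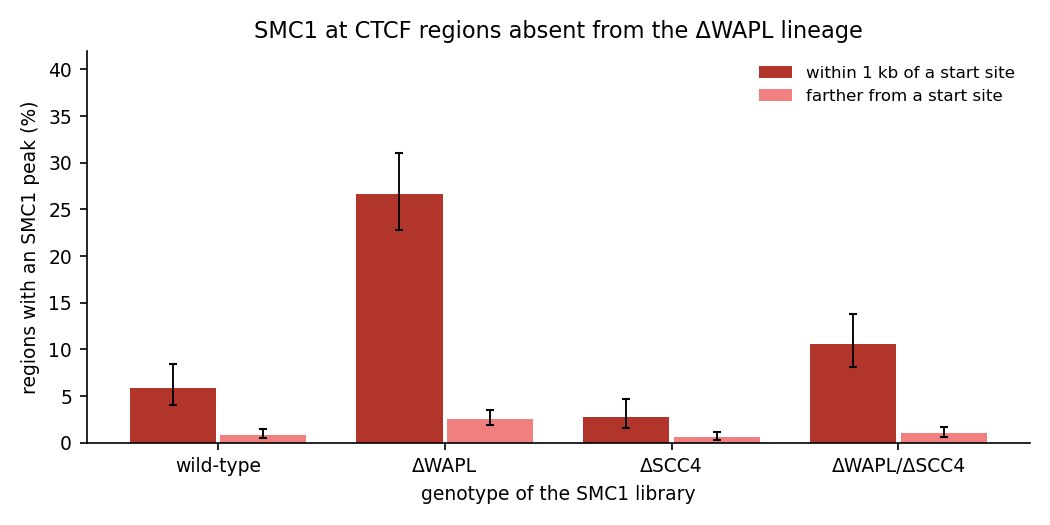
Percentage of regions absent from the ΔWAPL lineage with an SMC1 peak in each of the 4 SMC1 libraries, for the 442 regions within 1 kb of a start site and the 1421 farther away, with 95% Wilson intervals. The highest share is 26.7%, near start sites in ΔWAPL.

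Among the 24 strongest, 5 had a wild-type SMC1 peak, and none of those 5 had one in ΔWAPL or ΔWAPL/ΔSCC4. At the GSE1 site SMC1 had a fold enrichment of 7.71 in wild-type and 5.21 in ΔSCC4. At the NBAS site the enrichment was 5.14, at LRMDA 4.54, and in an intron of TBC1D22A, a gene of the Rab GTPase-activating family, 4.77, each in wild-type only. The opposite case was an intron of ADAMTS2, a procollagen-processing protease, where SMC1 was called in ΔWAPL alone at 4.09. Over the 38 regions with a wild-type SMC1 peak, 27 (71.1%, 55.2 to 83.0) also had one in ΔWAPL and 19 (50.0%, 34.8 to 65.2) in ΔWAPL/ΔSCC4. The shares at other wild-type CTCF regions with SMC1 were 95.5% and 92.9%. Those SMC1 peaks were stronger, with a median wild-type fold enrichment of 6.38 against 4.62 at the 38 regions, and the shares were not matched for this.

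The regions lay somewhat more often near start sites than other CTCF sites, chiefly among the weakest. The summit lay in an intron in 1040 (55.8%, against 53.4% of other wild-type regions), between genes in 567 (30.4% against 35.7%), in an untranslated region in 102, in a coding exon in 88 (4.72% against 2.77%) and in an exon of a non-coding transcript in 66. Within 1 kb of a start site lay 442 (23.7%, 21.8 to 25.7), against 20.0% (19.6 to 20.4) of other wild-type regions, 17.8% of those missing only in ΔSCC4 and 15.9% of those with a peak in both lineage libraries but not in wild-type. By class of strength it was 25.6% (22.8 to 28.6) against 20.1% (18.3 to 22.1) of other wild-type regions under a −log10 q of 5. From 5 to 10 it was 22.3% (19.7 to 25.1) against 20.9%, and from 10 to 20 it was 21.2% (13.8 to 31.0) against 20.1%. Of the 7 regions from 20 to 50, 0 lay near a start site, against 17.8% of others. The 251 with a ΔSCC4 peak were near a start site in 17.9% (13.7 to 23.1) and the 1612 without one in 24.6% (22.6 to 26.8). An IgG peak overlapped 20 (1.07%), beside 0.906% of other wild-type regions.

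In the gene lists counted, the interval of the share included the 4.34% of all wild-type regions each time. Most lists held few regions and had wide intervals, such as 0.739% to 20.2% at HOX genes and 1.28% to 15.5% at cohesin genes. These intervals do not show that the shares were alike. Within 10 kb of a HOX gene it was 1 of 24 wild-type regions, at HOXB1. At the clustered protocadherins, whose promoter choice depends on CTCF, it was 3 of 47, including chr5:140255436-140255649 in the alpha cluster with a fold enrichment of 7.40. At ZNF genes it was 22 of 465 (4.73%, 3.14 to 7.06), and at 24 imprinted genes 3 of 45, of which 2 were at GRB10 and 1 at ZDBF2. At the 15 genes of cohesin and its regulators it was 2 of 43, near RAD21 and at MAU2. The MAU2 site at chr19:19431490-19431699, at the gene that is disrupted in ΔSCC4 cells, had a fold enrichment of 5.81 in wild-type and also had a ΔSCC4 peak.

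In the order of wild-type CTCF regions along the chromosomes, 1650 of the 1863 stood alone, 198 formed 99 adjacent pairs and 15 formed 5 runs of 3. One run covered all 3 wild-type regions of NFAT5, which encodes the transcription factor of the osmotic stress response. Its members held 9, 10 and 9 wild-type reads, and the first, in an untranslated region at chr16:69599477-69599668, had SMC1 peaks in all 4 genotypes with fold enrichments of 6.49 in wild-type and 5.90 in ΔSCC4, and of 5.40 and 4.99 in ΔWAPL and the double knockout. An overlap of 1 bp was enough to count, so these SMC1 peaks need not cover the CTCF summit, which lay 333 bp from an NFAT5 start site. The nearest CTCF summit of either lineage library was a median of 18836 bp from the wild-type summit, and it was within 1 kb at 88 regions (4.72%).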

How the data were processed

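Groups were taken from the sample titles. The authors sequenced single-end reads, mapped them to hg19 (Bowtie2), and ran MACS2 version 2.1.1 on every library, with IgG named as the control. In all CTCF and SMC1 lists, however, every tested background above the floor was a whole number of reads per 10000 bp (within 0.05 reads), scaled to the fragment length, as the library's own reads would give, so the enrichments may not be relative to IgG. The deposited fold enrichment is a ratio of reads to local background, each with 1 added, and the −log10 p and −log10 q, also deposited, come from the peak caller. Both were used as given. Whole-number reads and the background were solved from the fold enrichment and −log10 p of each peak, which gave exactly 1 solution for at least 99.9% of peaks in every list. Average depth was the smallest background divided by the shortest interval. Genes are from GENCODE mapped to GRCh37, and sequences from that assembly, which has the chromosomes of hg19. Steps were run in Python 3.11.15 with pysam 0.24.0 and scipy 1.17.1 and checked on simulated data.

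The members and gene lists were chosen with earlier results of these data known. Named regions were the 24 strongest outside IgG peaks on chromosomes 1 to 22 and X, the 2 strongest of each class, the longest runs (none on chromosome Y is named), and the 3 weakest and 3 nearest excluded regions. Alternatives were stricter −log10 q limits, other merging and overlap rules, scaling to the shallowest library and equal list lengths. Of the 24 strongest, 1 result is not reported here, and others are given by gene only or in counts.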

Additional observations from a re-analysis of the deposited data

How the results depend on the processing

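The number of regions stayed between 1486 and 2022 under 8 of 10 alternatives. It was 842 with a −log10 q of at least 10 in all lists and 92 with that limit on the wild-type list only, which by construction leaves fewer peaks. The share with a ΔSCC4 peak, 13.5%, was 16.7% and 38.0% under those same 2 limits, 16% after scaling to the shallowest library and 42.4% with equal numbers of the strongest peaks per list. The share with a wild-type SMC1 peak, 2.04%, was 3.03% with a −log10 q of at least 5 in all lists, 6.65% with at least 10, 9.78% with at least 10 in wild-type only, 3.08% when summits had to lie within 250 bp, 3.86% after scaling and 4.60% with equal list lengths. The share near a start site, 23.7%, was 19.6% for wild-type peaks of at least 10. The motif share, 41.8% over all chromosomes, was 23.5% at a threshold reached by 1% of flanks and 44.9% within 100 bp of the summit. The other 27 values lay within the counting error of the main value or, for numbers of regions, within 1.5 times of it.

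No paired analysis was possible because each group held 1 library. Spread between cultures and precipitations is unknown, the ΔWAPL lineage descends from 1 clone, and the low reads of most regions (median 10) limit what an absent call shows.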

Other observations

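Some long genes held several of these CTCF regions, and those named here were picked for holding at least 3. Over all wild-type regions the share was 4.34%, so the higher shares of these genes follow in part from the picking. MAGI2, which encodes a scaffold protein of cell junctions, held 4 of its 24 wild-type regions. CEP128, a centriole gene, held 3 of 8, ZBTB20, a zinc-finger repressor gene, 3 of 14, and PTPRD, a receptor phosphatase gene, 3 of 29. The share of wild-type regions absent from the ΔWAPL lineage ran from 3.41% (2.73 to 4.25) on chromosome 11 to 6.07% (4.18 to 8.75) on chromosome 21. The interval of chromosome 21 included the 4.34% of all wild-type regions, and that of chromosome 11 did not. Both chromosomes were picked afterwards as the extremes, so the interval of chromosome 11 does not show a difference. The shares were not matched for strength. Among wild-type regions with a −log10 q under 10, chromosome 11 held 16.4% (13.2 to 20.1) and was not the lowest. Chromosome 13 was lowest there, with 15.2% (11.4 to 19.9), and chromosome 21 again highest, with 25% (17.5 to 34.3).

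Other runs of 3 adjacent regions ended in an intron of ADGRL3, an adhesion receptor gene, near ENC1, and in a coding exon of PNRC1, a nuclear receptor coactivator gene. At the end of the ENC1 run, 6077 bp from its start site, 17 reads were called in wild-type and 12 in ΔSCC4. In the PNRC1 run, chr6:89742409-89742634 held 9 reads in wild-type and 23 in ΔSCC4, more in the mutant than in wild-type, and had no peak in the lineage.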
